A study of Mus musculus with 12 samples.

Results

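Caveolae, the diaphragms of endothelial openings and the EHD membrane-remodelling proteins were followed through 9 genes, *Cav1*, *Cav2*, *Plvap*, *Ehd1*, *Ehd2*, *Ehd3*, *Ehd4*, *Pacsin2* and *Dnm2*, picked by their names from 19564 genes measured in cells sorted as glomerular endothelial cells (GEC). All 9 were listed for both sorted subpopulations. GEC were sorted from digested glomeruli of 4-month-old C57BL/6 mice that carried the TekCre tdTomato reporter, in which Cre driven by the *Tek* promoter switches on a red fluorescent protein, and the sort took cells of dim and of bright reporter signal separately. The mice were wild type (WT) or Col4a5 -/- and are called AS after Alport syndrome, the kidney disease caused by loss of type IV collagen chains. RNA-seq gave 1 library of dim and 1 of bright cells from each of 3 WT and 3 AS mice, so that 12 libraries form the groups WT-dim, WT-bright, AS-dim and AS-bright with n = 3 each. Genes were counted 11440169 to 15074909 times in all per library.

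Caveolae are flask-shaped pits of the plasma membrane. Caveolin-1, assisted by caveolin-2, builds their coat together with the cavins. EHD2, an ATPase, sits at the caveolar neck and holds the pit at the surface, PACSIN2 is a membrane-bending F-BAR protein of the same neck, and dynamin 2 is the GTPase that severs necks of caveolae and of clathrin-coated pits. The EHD proteins 1, 3 and 4 act mainly on recycling endosomes, and EHD3 is known in the kidney as a marker of the glomerular endothelium. PLVAP forms the diaphragms that span fenestrae and the mouths of caveolae. The fenestrae of the mature glomerular endothelium mostly lack such diaphragms, while those of other kidney capillaries have them.

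The targeted gene, *Col4a5*, had 439 to 877 counts in the WT-dim and 17 to 51 in the AS-dim libraries. In the bright cells it was low in both genotypes, at 69 to 158 counts in WT and 43 to 104 in AS, and these ranges overlap. The labels do not say which stretch of the gene the allele changes, so that counts over the whole gene test the genotype only in part.

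The cell type of the libraries was examined with marker lists. All 13 endothelial markers were above 3 counts in every library. Their summed level was 9419 to 12170 CPM (the count of a gene relative to the total of its library, on a scale of 1e6 and with totals adjusted by the TMM method) in WT-bright and 12759 to 13845 in AS-bright, but 711 to 1063 in WT-dim and 212 to 258 in AS-dim. A dim library thus held 5.85% to 11.3% of the endothelial marker level of the bright library of the same mouse in WT, and 1.53% to 2.02% in AS. Leukocyte markers were higher in the dim libraries. The 18 listed for the dim cells were all above 3 counts in each dim library and summed to 9391 to 15679 CPM in WT-dim and 17406 to 20130 in AS-dim, against 53.6 to 101 in WT-bright and 111 to 149 in AS-bright for the 13 listed there. Proximal tubule markers summed to 1982 to 9330 CPM in WT-dim and 39.3 to 606 in AS-dim, without overlap, and to 631 to 3918 in WT-bright and 135 to 891 in AS-bright, which overlapped. In bulk libraries, fewer cells of a type and less RNA per cell cannot be told apart. In every dim library the leukocyte sum exceeded the endothelial sum, so that these markers do not show the dim cells to be mainly endothelial. The dim cells are therefore named by the sort, and the marker levels are given beside the results they move with.

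The genes lie on 8 chromosomes of the mouse genome build GRCm38. *Cav2* (chromosome 6, 17281185 to 17289115) and *Cav1* (chromosome 6, 17306335 to 17341452) stand in a row on the plus strand with 17.219 kb between them, and an antisense gene, Gm15581, overlaps introns of both. *Plvap* is on chromosome 8 (71497765 to 71511752, minus strand) and overlaps the opposite gene *Gtpbp3* outside its exons. The EHD genes are apart from each other, *Ehd1* on chromosome 19 (6276725 to 6300096, plus), *Ehd2* on 7 (15946958 to 15967567, minus), *Ehd3* on 17 (73804134 to 73832094, plus) and *Ehd4* on 2 (120089175 to 120154606, minus), with no other annotated gene over them. *Pacsin2* (chromosome 15, 83375607 to 83464606, minus) contains the pseudogene Gm5417, and *Dnm2* (chromosome 9, 21424908 to 21507759, plus) shares exon sequence with the opposite gene *Tmed1*, so that its reads are uncertain if counting ignored strand. No transcript of the 9 genes shared a stretch of 100 bases in the same orientation with another gene, and the opposite strand was not searched.

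RefSeq promoters were found for 7 of the 9 genes. *Plvap* and *Ehd1* had none. The 250 bases before the first start of *Cav1* and *Cav2*, which moved together between the subpopulations, and of *Dnm2*, which did not, are shown with the core of the ETS factors (GGAA on either strand) in capitals, because ETS factors are known regulators of endothelial genes (GRCm38.p6, plus strand for all 3).
Cav1 chr6:17306085-17306334: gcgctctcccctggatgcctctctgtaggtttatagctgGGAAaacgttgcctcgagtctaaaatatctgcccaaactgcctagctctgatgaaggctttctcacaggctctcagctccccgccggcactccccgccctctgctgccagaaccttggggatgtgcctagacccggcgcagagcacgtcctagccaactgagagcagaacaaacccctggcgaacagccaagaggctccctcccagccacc
Cav2 chr6:17280935-17281184: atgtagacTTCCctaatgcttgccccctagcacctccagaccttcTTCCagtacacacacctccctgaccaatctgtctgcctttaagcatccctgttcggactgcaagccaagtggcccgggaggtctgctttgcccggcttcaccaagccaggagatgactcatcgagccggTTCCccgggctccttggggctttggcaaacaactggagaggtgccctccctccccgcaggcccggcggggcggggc
Dnm2 chr9:21424658-21424907: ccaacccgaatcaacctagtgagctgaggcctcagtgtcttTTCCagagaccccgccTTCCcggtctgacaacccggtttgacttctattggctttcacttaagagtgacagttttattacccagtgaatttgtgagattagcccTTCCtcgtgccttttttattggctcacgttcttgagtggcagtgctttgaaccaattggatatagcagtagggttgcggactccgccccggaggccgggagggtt
The *Cav1* window held 1 core and the *Cav2* and *Dnm2* windows 3 each, and these letters are common, since 93.4% of 32851 promoters of this length hold at least 1 and the median promoter holds 3. The GC content was 59.6% for *Cav1*, 62.0% for *Cav2* and 51.2% for *Dnm2*, beside a median of 52.4% over all promoters. The *Ehd2* window held no core, and those of *Ehd3* and *Ehd4* held 3 each. The window before another start of *Cav1* (chromosome 6, 17307390 to 17307639) held 3 cores, and the windows of *Pacsin2* held 2, 4 and 5.

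Per kb of exon, the scale on which levels of different genes can be compared, *Ehd3* led in the bright cells with 571 ± 260.4 CPM per kb (SD, n = 3) in WT and 728 ± 121 in AS. None of the other genes reached it in any bright library. *Ehd4* (88.0 ± 11.95 in WT and 106 ± 17.4 in AS) and *Cav2* (89.1 ± 2.99 and 81.8 ± 34.2) followed, and the libraries of these neighbours overlapped. *Ehd2* and *Cav1* came next at 49.7 ± 1.77 and 49.5 ± 9.32 CPM per kb in WT-bright, again without a difference beyond their spread. *Plvap* was the lowest of the 9 in WT-bright at 7.22 ± 1.06, where it overlapped *Ehd1* at 7.64 ± 4.95, and in AS-bright it stood at 18.4 ± 4.87, above every library of *Pacsin2* (12.4 ± 1.60) and again overlapping *Ehd1* (9.91 ± 4.01). In the dim cells *Dnm2* had the highest mean, at 42.2 ± 13.9 CPM per kb in WT and 40.7 ± 4.70 in AS, but overlapped the next gene in both. In WT-dim that was *Ehd3* (41.8 ± 22.1), and *Ehd1* (32.0 ± 12.4) and *Ehd4* (27.0 ± 2.92) overlapped with it. In AS-dim *Ehd4* (31.9 ± 4.86) and *Ehd1* (31.1 ± 1.17) lay apart from *Ehd3* (11.9 ± 3.50), and *Cav1* (0.786 ± 0.341) and *Plvap* (0.235 ± 0.0791) came last.

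**Figure D1:**
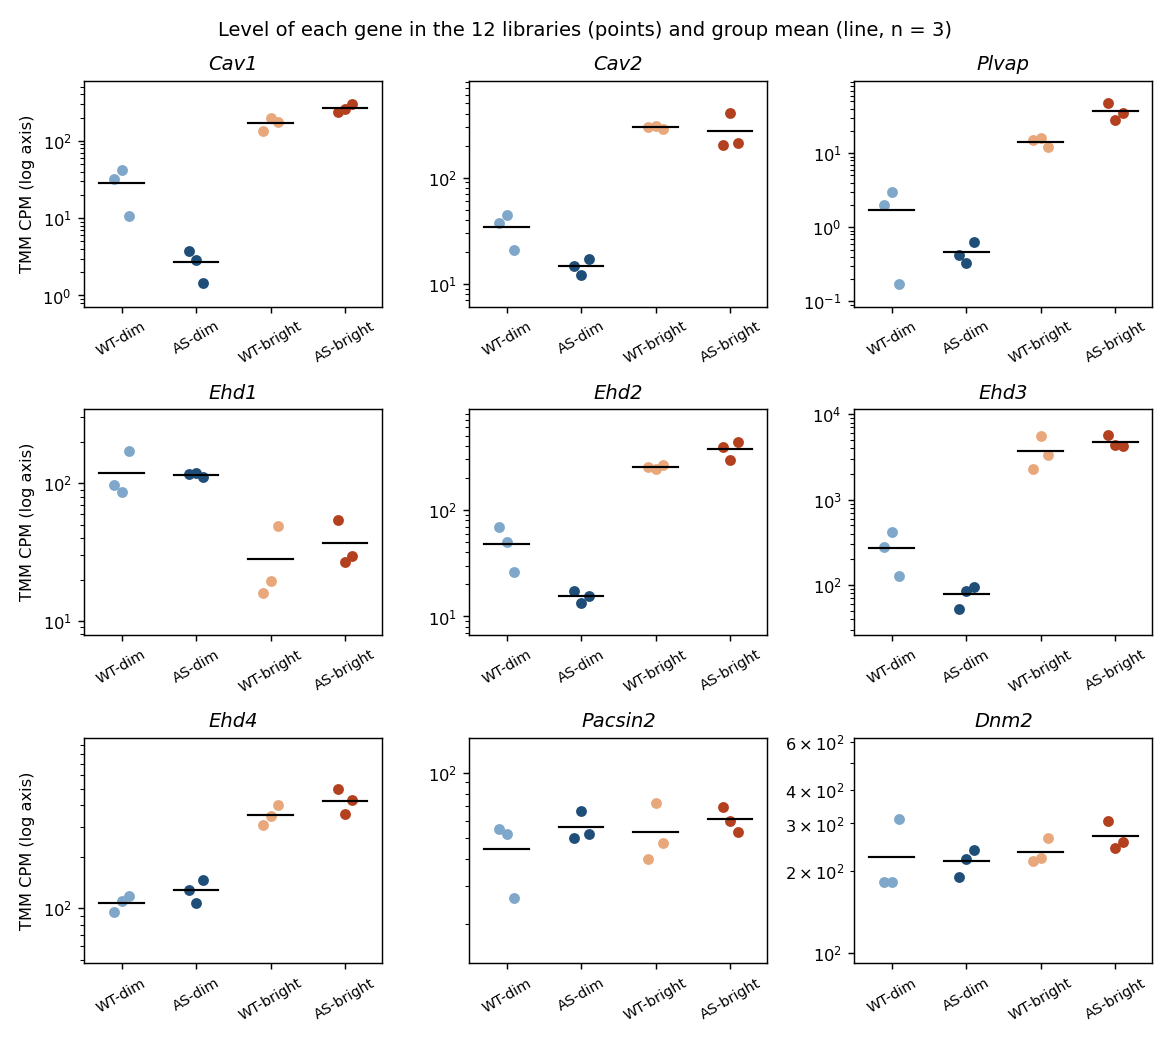
Level of each of the 9 genes in TMM-scaled CPM (log axis) in the 3 libraries of WT-dim, AS-dim, WT-bright and AS-bright; points are libraries and lines group means. *Cav1*, *Cav2*, *Plvap*, *Ehd2*, *Ehd3* and *Ehd4* are higher in every bright library than in any dim library, *Ehd1* is lower, and *Pacsin2* and *Dnm2* overlap, except that *Dnm2* of AS mice is higher in every bright library.

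The first comparison asked how bright cells differ from dim cells within a genotype. In WT mice 6 of the 9 genes were higher in bright cells and 1 was lower, where 13.8% of the 14247 genes tested were higher and 11.5% lower. In AS mice the same 6 genes were higher and the same 1 lower, where 28.6% of 14052 genes were higher and 26.5% lower. These 7 showed no overlap between bright and dim libraries, as did 22.2% (higher) and 19.7% (lower) of all genes in WT and 31.9% and 30.5% in AS. The median log2 fold change of the 9 genes was 2.49 in WT and 4.22 in AS, beside -0.04 and 0.02 over all genes tested. All 13 endothelial markers were higher in bright cells of both genotypes, with medians of 3.67 in WT and 6.28 in AS, and their part was not tested. Unless stated otherwise, the test is the quasi-likelihood test of edgeR, with p adjusted by Benjamini-Hochberg over every gene tested and a threshold of 0.05. WT and AS mice each gave their own bright and dim libraries, so that these comparisons share none. Markers of mesangial and mural cells, which can also carry caveolae, were higher in bright cells too. Their 7 genes listed for the dim cells summed to 122 to 197 CPM in WT-dim and 61.6 to 110.2 in AS-dim, against 432 to 859 in WT-bright and 459.6 to 819 in AS-bright for the 8 listed there. Of the 7 tested, 4 were called higher in WT and 7 in AS, and their part in these results was not tested.

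*Cav1*, the structural caveolin, had 32.4, 41.6 and 10.6 CPM in WT-dim and 135, 199 and 177 in WT-bright. In AS it had 3.76, 2.91 and 1.44 CPM in the dim and 239, 258 and 296 in the bright libraries. Bright libraries lay above dim libraries without overlap in both genotypes, and the third WT-dim library was the lowest of its group. The log2 fold change was 2.68 in WT (SE 0.45, adjusted p = 0.00225) and 6.61 in AS (SE 0.29, adjusted p = 6.35e-08), that is 6.42-fold and 97.6-fold. *Cav2*, its partner, had 37.0, 44.7 and 20.8 CPM in WT-dim against 298, 307 and 287 in WT-bright, and 14.8, 12.2 and 17.3 in AS-dim against 202, 405 and 212 in AS-bright. It also showed no overlap, with log2 fold changes of 3.21 in WT (SE 0.31, adjusted p = 0.000118) and 4.22 in AS (SE 0.32, adjusted p = 2.23e-06).

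*Ehd2*, the EHD protein of the caveolar neck, was at 68.8, 49.8 and 26.0 CPM in WT-dim and 255, 245 and 263 in WT-bright. Its AS libraries gave 17.3, 13.4 and 15.6 CPM in the dim and 395, 297 and 440.4 in the bright cells. The groups did not overlap in either genotype, and the log2 fold change was 2.49 in WT (SE 0.34, adjusted p = 0.000732) and 4.63 in AS (SE 0.22, adjusted p = 9.98e-08). The cavins, which polymerize on caveolin into the coat, moved in the same direction. *Cavin1*, *Cavin2* and *Cavin3* had log2 fold changes of 2.12, 2.63 and 3.86 in WT and 3.58, 5.52 and 6.52 in AS, and all 6 values passed the test (adjusted p 0.000285 to 0.000528 in WT and 3.83e-07 to 4.90e-07 in AS). *Dnm3*, a dynamin better known from neurons, was higher in bright cells of WT mice (3.80, adjusted p = 0.000232) and had 2.11 in AS, where it missed the threshold (adjusted p = 0.0648) and the libraries overlapped. Its AS-dim libraries held 3, 230 and 13 counts, and without the second of them the value was 5.51 (adjusted p = 4.90e-05). With a term for each mouse as replicate block it was 2.79 and passed (adjusted p = 0.00381). *Cav3* and *Cavin4*, known from muscle, and *Dnm1* were not listed for either subpopulation, *Pacsin1* was listed for the dim cells only, and *Pacsin3*, at 3 to 47 counts, was not tested in WT and gave -0.05 in AS (adjusted p = 0.949).

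*Plvap*, the diaphragm protein, was the scarcest of the 9 in the dim cells, with 22, 35 and 2 counts (1.97, 3.02 and 0.17 CPM) in WT-dim and 6, 4 and 8 counts (0.43, 0.33 and 0.64 CPM) in AS-dim. In the bright cells it reached 14.8, 16.2 and 12.02 CPM in WT and 47.1, 28.0 and 34.9 in AS. All bright libraries were above all dim libraries, with a log2 fold change of 3.14 in WT (SE 0.63, adjusted p = 0.00635) and 6.28 in AS (SE 0.42, adjusted p = 6.26e-07). Since the dim values rest on 2 to 35 counts, the size of these folds is less certain than their direction.

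The EHD genes of recycling endosomes did not move as 1 group. *Ehd3* had 276, 418 and 128 CPM in WT-dim and 2291, 5623 and 3311 in WT-bright. In AS it had 52.0, 85.7 and 95.9 CPM in the dim and 5687, 4333 and 4296 in the bright libraries. It was higher in every bright library, by 3.85 on the log2 scale in WT (SE 0.50, adjusted p = 0.000577) and 5.96 in AS (SE 0.31, adjusted p = 1.59e-07). *Ehd4* was at 95.3, 111 and 118 CPM in WT-dim, 307, 348 and 402 in WT-bright, 128, 108 and 147 in AS-dim and 495, 355 and 429 in AS-bright. Its difference between the subpopulations was smaller and of like size in both genotypes, 1.79 in WT (SE 0.23, adjusted p = 0.000554) and 1.76 in AS (SE 0.19, adjusted p = 3.35e-05). *Ehd1* went the other way, with 97.2, 87.1 and 171 CPM in WT-dim against 15.9, 19.7 and 49.4 in WT-bright, and 117, 118 and 110.3 in AS-dim against 53.8, 26.7 and 29.8 in AS-bright. It was lower in each bright library than in any dim library, by -1.99 in WT (SE 0.47, adjusted p = 0.0140) and -1.63 in AS (SE 0.26, adjusted p = 0.000474). Without the second WT-bright library the WT value was -1.78 and missed the threshold (adjusted p = 0.0668). The leukocyte marker sum was likewise lower in all bright libraries, and its part in the *Ehd1* result was not tested.

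*Pacsin2* and *Dnm2* did not pass the test in either genotype. *Pacsin2* ranged from 26.3 to 72.2 CPM over the 12 libraries and *Dnm2* from 182 to 311. In AS mice the bright libraries of *Dnm2* (243 to 307 CPM) lay above the dim libraries (189.7 to 239) without overlap, as 31.9% of all genes did, and in WT mice they overlapped. The log2 fold change of *Pacsin2* was 0.34 in WT (95% interval -0.47 to 1.16) and 0.13 in AS (-0.31 to 0.57), and that of *Dnm2* was 0.14 in WT (-0.48 to 0.77) and 0.32 in AS (-0.06 to 0.71). These intervals hold neither a rise as large as that of *Cav1* nor a fall as large as that of *Ehd1*.

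**Figure D2:**
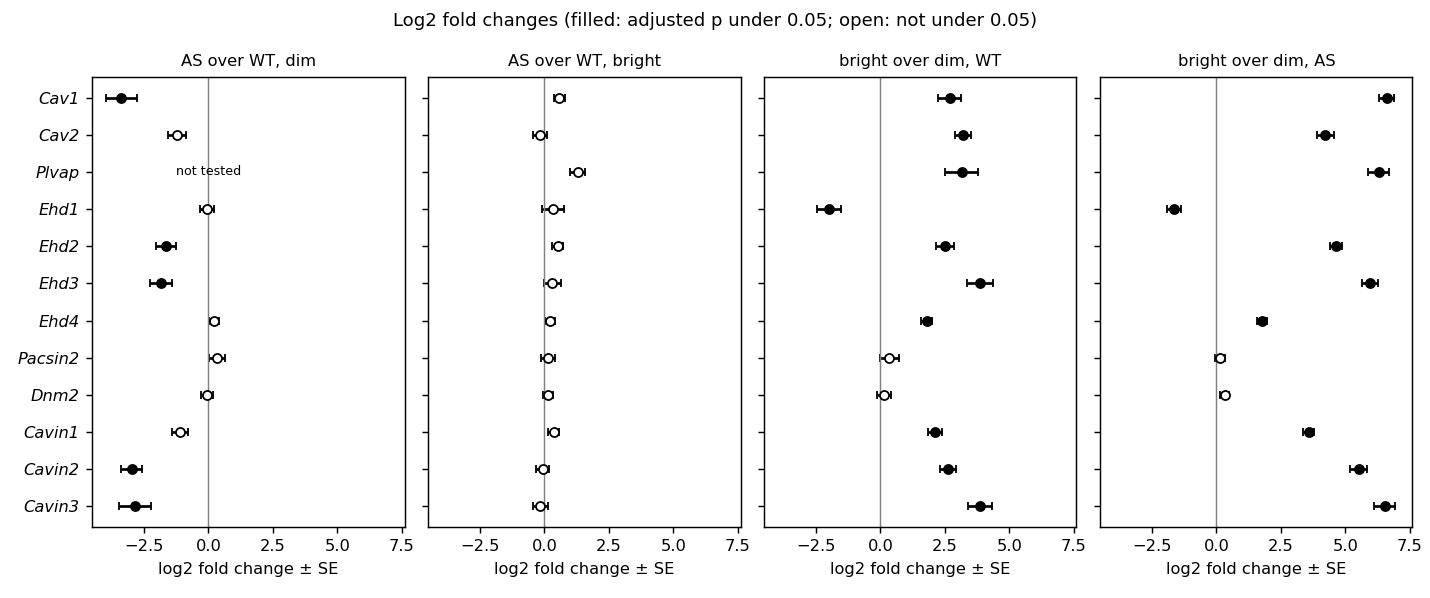
Log2 fold change with its standard error (horizontal bars) for the 9 genes and 3 cavins in AS over WT of the dim and of the bright cells and in bright over dim of WT and of AS mice; filled points have an adjusted p under 0.05. Caveolar genes lie on the right in both bright over dim panels, while in AS over WT the filled points are those of *Cav1*, *Ehd2*, *Ehd3*, *Cavin2* and *Cavin3* in the dim cells, all on the left.

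The EHD family therefore had a different make-up in the 2 subpopulations. *Ehd3* made up 72.8%, 86.0% and 75.3% of the summed *Ehd1* to *Ehd4* level per kb in the WT-bright and 80.1%, 81.1% and 76.5% in the AS-bright libraries. In WT-dim it was 39.9%, 51.2% and 19.4%, and in AS-dim 10.6%, 17.5% and 17.4%. *Ehd1* took 35.4% to 42.8% of the sum in AS-dim and 18.9% to 46.1% in WT-dim, but 0.533% to 1.99% in the 6 bright libraries. *Ehd4* took 36.2% to 43.6% in AS-dim and 22.2% to 29.4% in WT-dim, while the whole sum was 74.5 to 84.1 CPM per kb in AS-dim and 100.4 to 125 in WT-dim. Between WT-dim and AS-dim the shares of *Ehd3* and *Ehd4* did not overlap and that of *Ehd1* did. Caveolins also differed in balance. The ratio of *Cav2* to *Cav1* per kb was 4.07, 4.34 and 12.4 in AS-dim, above the 1.18, 1.11 and 2.02 of WT-dim, the 2.27, 1.59 and 1.68 of WT-bright and the 0.871, 1.62 and 0.740 of AS-bright. These ratios are taken within a library and do not depend on its scaling, but the 12.4 rests on 18 counts of *Cav1*.

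**Figure D3:**
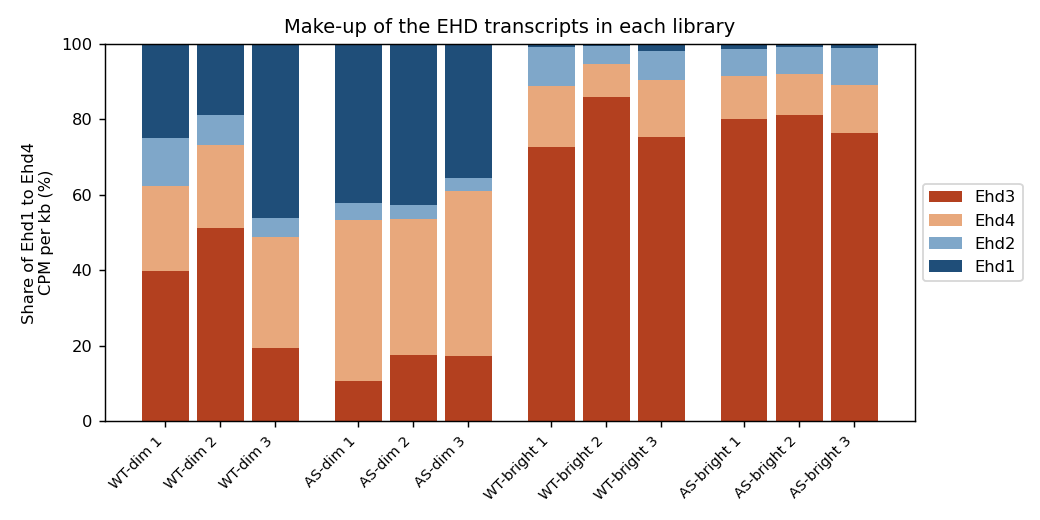
Share of *Ehd1*, *Ehd2*, *Ehd3* and *Ehd4* in their summed level per kb of exon (percent, 1 bar per library) in the 12 libraries. *Ehd3* fills 72.8% to 86.0% of every bright library and 10.6% to 51.2% of the dim libraries, where *Ehd1* and *Ehd4* take up most of the rest.

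The second comparison asked what differs between AS and WT mice in the dim cells. Of the 8 genes tested, 3 fell and none rose, where 6.42% of the 14637 genes tested fell and 2.21% rose. *Cav1* fell from 28.2 ± 15.9 (SD, n = 3) to 2.71 ± 1.18 CPM, a log2 fold change of -3.38 (SE 0.62, adjusted p = 0.0230). *Ehd2* fell from 48.2 ± 21.4 to 15.4 ± 1.93 CPM (-1.66, SE 0.38, adjusted p = 0.0373) and *Ehd3* from 274 ± 145 to 77.8 ± 23.0 (-1.83, SE 0.42, adjusted p = 0.0384). In all 3 the AS libraries lay below all WT libraries, as in 16.2% of all genes, the third WT-dim library being the closest to them. *Cav2*, with 34.2 ± 12.2 and 14.8 ± 2.51 CPM, did not overlap either, but its log2 fold change of -1.22 missed the threshold (SE 0.35, adjusted p = 0.0672). It passed with DESeq2 (adjusted p = 0.0125), with edgeR's likelihood ratio test (0.0350) and with all 12 libraries in one edgeR fit (0.0287).

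Both coat genes *Cavin2* (-2.98, SE 0.40, adjusted p = 0.0175) and *Cavin3* (-2.85, SE 0.62, adjusted p = 0.0336) fell in AS-dim. *Cavin2* had 52.1, 44.5 and 26.4 CPM in WT-dim and 3.83, 7.16 and 4.80 in AS-dim, and *Cavin3* had 25.8, 20.5 and 6.89 against 1.77, 1.83 and 3.84. *Cavin1* was at 24.3, 19.2 and 28.2 CPM in WT-dim and 10.9, 10.7 and 11.8 in AS-dim, a difference of -1.11 that missed the threshold (adjusted p = 0.0575) but passed with the same 3 alternatives as *Cav2* (adjusted p 0.00397 to 0.0324). So 2 of the 5 coat and neck genes tested fell, where 6.42% of all genes did, and *Pacsin1* (1.25, adjusted p = 0.234) and *Dnm3* (0.84, adjusted p = 0.701) did not pass. *Plvap* had too few counts to be tested, and in a fit of every gene with a count it gave -1.86 (SE 0.84, adjusted p = 0.194). Without WT-dim replicate 3, the library with 2 counts, it entered the test through the WT libraries with 22 and 35 counts alone and gave -2.41 (adjusted p = 0.0401), a value that is no support for a fall. The other EHD, neck and scission genes showed overlapping libraries, with log2 fold changes of -0.05 for *Ehd1* (95% interval -0.68 to 0.57), 0.23 for *Ehd4* (-0.23 to 0.68), 0.32 for *Pacsin2* (-0.40 to 1.04) and -0.06 for *Dnm2* (-0.63 to 0.50).

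The falls in the dim cells went together with other changes between the same libraries. Endothelial markers had a median log2 fold change of -2.22, with 8 of 13 called lower, against -0.64 for the genes tested here and -0.02 over all genes. Proximal tubule markers had a median of -4.20, with 5 of 12 called lower, and leukocyte markers 0.40, with 3 of 18 called higher (*Lyz2*, *Csf1r* and *Adgre1*, chosen after their values were seen). Podocyte markers had a median of -1.80, with 3 of 6 called lower and 1 higher. Mesangial and mural markers had a median of -1.01, with all 7 tested negative and none called. The part of these last 2 lists was not tested. Over all genes, 6.42% were called lower and 2.21% higher. With the mean leukocyte marker level as a covariate, the log2 fold change was -1.35 for *Cav1*, 0.01 for *Ehd2* and 0.05 for *Ehd3*, and none passed. With that of the proximal tubule markers it was -2.80, -1.21 and -1.75, and again none passed. These covariates differ between the genotypes, so that their effect and that of genotype cannot be told apart. All 3 calls were also lost without any 1 of the AS-dim libraries (adjusted p 0.0613 to 0.147), with log2 fold changes of -3.73 to -3.07 for *Cav1*, -1.77 to -1.60 for *Ehd2* and -1.9998 to -1.63 for *Ehd3*. *Ehd2* and *Ehd3* lost their call without the first WT-dim library (-1.30 and -1.82) and without the second (-1.67 and -1.42) as well. Their calls were also lost with edgeR's version 3 fit (adjusted p = 0.0570 and 0.0620) and with the replicate block. Without the third WT-dim library, *Cav2* passed as well (-1.47, adjusted p = 0.0240). The *Cavin2* call was lost with either covariate (-1.96 with tubule and -1.59 with leukocyte markers) and without AS-dim replicate 1 or 3 (-2.81 and -2.92). That of *Cavin3* was lost with either covariate (-2.16 and -0.29), with the replicate block (-2.72, adjusted p = 0.0810) and without each dim library except WT-dim replicate 3 (-3.29 to -2.47, adjusted p 0.0638 to 0.135).

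Relative to the summed endothelial markers of the same library, the genes differed in how their level compared between WT-dim and AS-dim. *Ehd3* stood at 279 ± 109.5 CPM per 1000 endothelial marker CPM (SD, n = 3) in WT-dim, 317 ± 64.6 in AS-dim, 338 ± 139 in WT-bright and 362 ± 42.1 in AS-bright, 4 groups that overlapped. *Ehd2* overlapped between the genotypes of the dim cells too, at 36.6 to 64.7 in WT-dim and 52.4 to 81.6 in AS-dim, and both were above its bright values of 21.6 to 34.5. *Cav1* had 30.5, 39.4 and 15.0 in WT-dim and 17.8, 11.4 and 5.57 in AS-dim, with the lowest WT library inside the AS range. *Cavin2* was lower in AS-dim without overlap, at 18.1 to 28.0 against 37.1 to 49.0 in WT-dim. *Cav2* and *Cavin1* were higher in AS-dim without overlap, at 47.9 to 70.2 against 29.3 to 42.4 and at 41.7 to 51.7 against 18.2 to 39.6. The endothelial sum itself was 711 to 1063 CPM in WT-dim and 212 to 258 in AS-dim, so that any gene of unchanged level rises in this ratio. Among the 9 genes, the largest differences were accordingly those of 4 whose own level overlapped between the genotypes, and they are no result about these 4. Without overlap, *Ehd1* stood at 138 ± 89.0 in WT-dim and 481 ± 66.3 in AS-dim, *Ehd4* at 120.3 ± 40.5 and 532 ± 97.1, *Pacsin2* at 46.0 ± 7.90 and 232 ± 28.6 and *Dnm2* at 260.3 ± 153 and 898 ± 27.5. *Cavin3* (9.69 to 24.2 in WT-dim and 7.16 to 14.9 in AS-dim) and *Plvap* overlapped. These ratios were not tested, and the markers entering them can come from fewer endothelial cells or from less RNA of each gene. The part of leukocyte RNA in the levels set against the markers was not tested either.

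**Figure D4:**
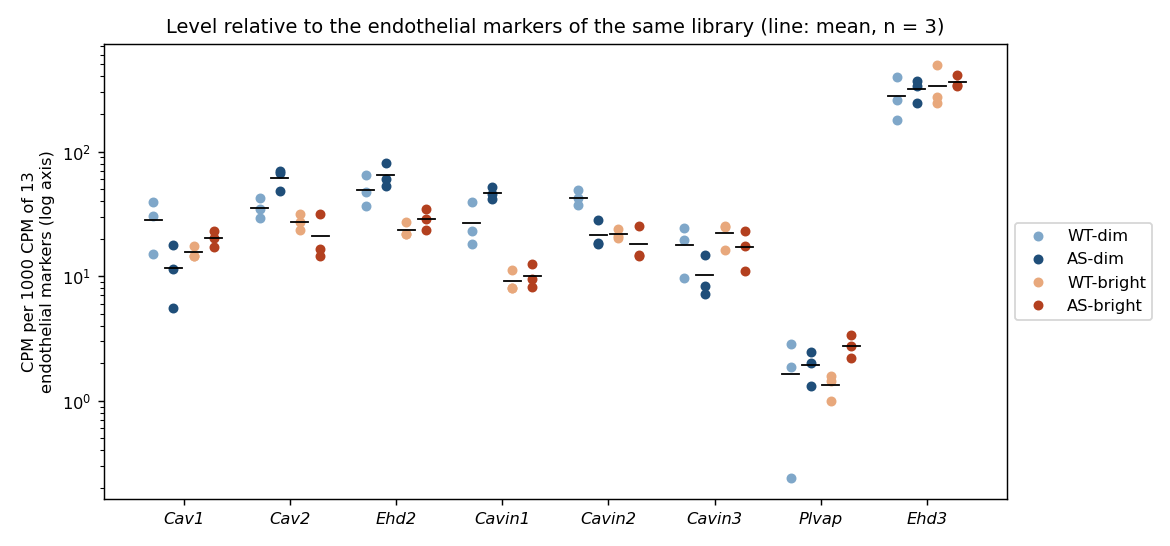
CPM of 8 caveolar, diaphragm and EHD genes per 1000 CPM of the 13 summed endothelial markers of the same library (log axis), with points for libraries and lines for group means. *Ehd3* holds 179.9 to 498 in the 12 libraries of 4 groups, *Cavin2* is lower and *Cav2* and *Cavin1* are higher in AS-dim than in WT-dim, and *Plvap* has its highest mean in AS-bright (2.19 to 3.40), overlapping both dim groups (0.239 to 2.86 in WT and 1.30 to 2.48 in AS).

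In the bright cells, AS over WT gave no call among the 9 genes, where 0.452% of the 14396 genes tested were called. At an unadjusted p under 0.05 there were 3 (*Cav1*, *Plvap* and *Ehd2*), where 21.8% of all genes were, and these 3 were also higher without overlap, where 13.6% of all genes were. *Plvap* was at 14.3 ± 2.12 CPM (SD, n = 3) in WT-bright and 36.7 ± 9.67 in AS-bright, a log2 fold change of 1.29 (SE 0.29, adjusted p = 0.0605) or 2.45-fold. It passed with DESeq2 (1.28, adjusted p = 0.00197) and with edgeR's likelihood ratio test (1.29, adjusted p = 0.00653), and without the second AS-bright library (1.46, adjusted p = 0.0490). *Cav1* had 0.58 (SE 0.21, adjusted p = 0.151) and *Ehd2* 0.51 (SE 0.20, adjusted p = 0.185), and neither passed in any of the 17 alternatives run. DESeq2 and the likelihood ratio test each called 1 of the 9 genes, *Plvap*. Over all genes these tests called 1117 and 827, against 65 with the quasi-likelihood test. Endothelial markers had a median of 0.34 and podocyte markers of 0.84 in the same comparison, with none of the 13 and none of the 6 called. The 12 proximal tubule markers had a median of -2.59, all negative and none called. With their mean level as a covariate the values were 0.96 for *Plvap* (adjusted p = 0.556), 0.41 for *Cav1* and 0.23 for *Ehd2*, and none passed. Markers of other kidney vessels had a median of 0.40, with none of 8 tested called and 3 higher without overlap. Their sum was 203 to 225 CPM in WT-bright and 212 to 275 in AS-bright, which overlapped. The part of the endothelial, podocyte and other vessel markers in these values was not tested.

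The remaining 6 genes overlapped between the genotypes in the bright cells. Their log2 fold changes were -0.18 for *Cav2* (95% interval -0.79 to 0.43), 0.32 for *Ehd1* (-0.64 to 1.28), 0.30 for *Ehd3* (-0.42 to 1.02), 0.22 for *Ehd4* (-0.24 to 0.67), 0.14 for *Pacsin2* (-0.43 to 0.72) and 0.13 for *Dnm2* (-0.30 to 0.57). *Cav2* was more than usually uneven in AS-bright, where the second library had 405 CPM and the others 202 and 212. The same library was the highest of its group in *Cavin2*, with 321 CPM against 199 and 189.8, and the lowest in *Cavin3*, with 140.3 against 243 and 292. *Cavin1*, *Cavin2* and *Cavin3* had log2 fold changes of 0.36, -0.06 and -0.16, *Pacsin3* -0.66 and *Dnm3* -0.84, and none of these 5 coat and neck genes passed (adjusted p 0.157 to 0.911).

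Whether the genotype acts differently on the 2 subpopulations was tested as an interaction over all 12 libraries, with the log2 fold change of AS over WT in the bright cells minus that in the dim cells. It passed for 2 of the 9 genes, both higher, where 2.96% of the 15084 genes tested were higher and 0.815% lower. *Cav1* had 3.98 (SE 0.60, adjusted p = 0.00432) and *Ehd2* 2.20 (SE 0.41, adjusted p = 0.0109), and both passed in all 20 alternatives run, in each of which they kept their sign. None of these alternatives used a marker covariate. In AS over WT of the dim cells, the calls of *Cav1* and *Ehd2* were lost with either covariate. *Plvap* (3.20, SE 0.87, adjusted p = 0.0558) and *Ehd3* (2.15, SE 0.58, adjusted p = 0.0573) missed the threshold. With a term for each mouse as replicate block, *Ehd3* passed (2.13, adjusted p = 0.0254) and *Plvap* did not (3.16, adjusted p = 0.0551). The others gave 1.07 for *Cav2* (adjusted p = 0.205), 0.41 for *Ehd1*, 0.02 for *Ehd4*, -0.16 for *Pacsin2* and 0.24 for *Dnm2* (adjusted p 0.758 to 0.976). *Cavin1* (1.52, adjusted p = 0.0189), *Cavin2* (2.94, adjusted p = 0.00432) and *Cavin3* (2.73, adjusted p = 0.0320) passed as well. Of the 13 endothelial markers 11 passed in the same direction, with a median of 2.57 beside 1.07 for the 9 genes and 0.13 over all genes. So did 5 of 6 podocyte markers (2.13 to 3.48), and the summed level of the list was 636 to 1245 CPM in WT-dim, 539 to 564 in AS-dim, 976 to 1192 in WT-bright and 1315 to 1501 in AS-bright. The part of either marker list in these results was not tested.

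Around these genes, proteins of caveolae and rafts were split. In bright over dim, *Nos3*, the endothelial nitric oxide synthase that caveolin-1 binds, was highest of 7 in WT (2.82, adjusted p = 0.00399) and in AS (5.05, adjusted p = 7.18e-06), and *Cd36*, a fatty acid receptor, was lowest in both (-1.002, adjusted p = 0.0287, and -2.03, adjusted p = 0.000918). The WT call of *Cd36* was lost without replicate 1 or 2 of WT-dim or 1 or 3 of WT-bright (-1.03 to -0.84). In all, 3 of the 7 were higher and 1 lower in WT, and 4 higher and 1 lower in AS, where 13.8% and 11.5% of all genes were in WT and 28.6% and 26.5% in AS. Between AS and WT dim cells 2 rose and 1 fell, where 2.21% and 6.42% of all genes did, with *Flot1*, a raft scaffold, at 1.21 (adjusted p = 0.0431) and *Aqp1*, a water channel of endothelium and proximal tubule, at -4.56 (adjusted p = 0.0263). The other gene that rose was *Flot2* (1.15, adjusted p = 0.0369, named after its value was seen). *Flot1* passed in 7 of 17 alternatives, and missed without each dim library except WT-dim replicate 3 (0.96 to 1.30). *Aqp1* missed with the tubule covariate (-1.05), the leukocyte covariate (-2.89), the version 3 fit (-4.52) and the replicate block (-4.42), and without AS-dim replicate 1 or 3 (-4.05 and -4.12). In the bright cells none of the 7 passed, and the extremes were *Flot1* (1.17, adjusted p = 0.108) and *Cd36* (-1.06, adjusted p = 0.156). *Aqp1* was the 1 gene of this list with an interaction (4.32, adjusted p = 0.0182), while *Cd36* had the lowest value (-0.98, adjusted p = 0.307).

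Partners of the EHD proteins were also split. Of 10 tested, 2 were higher and 1 lower in bright over dim of WT mice, where 13.8% and 11.5% of all genes were, from *Ehbp1* (2.08, adjusted p = 0.0352), an EHD-binding protein, to *Rab8a* (-1.13, adjusted p = 0.00858), a GTPase of recycling. The WT call of *Ehbp1* was lost without any 1 library except WT-bright replicate 1 (1.63 to 2.14). In AS mice 5 were higher and 2 lower, from *Ehbp1* (2.64, adjusted p = 0.000142) to *Ehbp1l1* (-1.40, adjusted p = 0.000311), where 28.6% and 26.5% of all genes were. AS over WT in the dim cells called 1 of 10 higher, where 2.21% of all genes were, *Ehbp1l1* (1.12, adjusted p = 0.0255, and lost in 8 of 17 alternatives, among them without WT-dim replicate 2 or any AS-dim library), with *Rab11fip2* lowest at -0.44 (adjusted p = 0.830), and in the bright cells none, with *Rab10* at 0.68 (adjusted p = 0.105) and *Rab11fip2* at -0.29 (adjusted p = 0.780). None of the 10 had an interaction, *Ehbp1* being highest (0.61, adjusted p = 0.716) and *Ehbp1l1* lowest (-1.18, adjusted p = 0.255).

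The clathrin coat, the other main route of uptake, served for comparison. In WT bright over dim 1 of 8 genes was higher, where 13.8% of all genes were, *Ap2a1* (1.19, adjusted p = 0.0354), and *Ap2a2* was lowest (-0.59, adjusted p = 0.209). The *Ap2a1* call was lost without any 1 of the 6 libraries (adjusted p 0.0599 to 0.108). In AS 3 were higher and 1 lower, where 28.6% and 26.5% of all genes were, from *Cltb* (2.18, adjusted p = 0.000313) to *Ap2a2* (-0.54, adjusted p = 0.0339), whose call was lost without AS-dim replicate 2 or 3 or AS-bright replicate 1 or 3 (-0.54 to -0.40). No clathrin coat gene passed for AS over WT in the dim cells, where values ran from -0.98 for *Cltb* (adjusted p = 0.278) to 0.50 for *Ap2a1* (adjusted p = 0.380), or in the bright cells, from -0.14 for *Clta* (adjusted p = 0.772) to 0.80 for *Ap2m1* (adjusted p = 0.0875). Nor did any pass as an interaction, from -0.12 for *Clta* (adjusted p = 0.880) to 1.31 for *Cltb* (adjusted p = 0.267).

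Genes with the most similar profile over the 12 libraries were sought among 12654 genes by the root mean square difference of mean-centred log2 CPM. For *Cav1* they were *Acer2* (0.44), *Slc9a3r2* (0.46) and *Efna1* (0.46), and for *Plvap* *Notch4* (0.39), *Jcad* (0.40) and *Bcl6b* (0.44). *Ehd3* was closest to *Hecw2* (0.20), *Plpp3* (0.27) and *Igfbp5* (0.30). The *Ehd4* profile, which varied less (SD 0.89 on the log2 scale against 2.58 for *Ehd3*), was closest to *Map3k11* (0.21), *Inpp5k* (0.21) and *Midn* (0.22). All 12 libraries share the split between dim and bright, which these measures largely reflect.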

How the data were processed

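GEC were sorted, and poly-A RNA was sequenced, from 3 WT and 3 AS mice, each library coming from a separate mouse or, for the dim and bright cells, from the same mouse. The authors aligned the reads with STAR (version 2.6.0c in the submitters' processing notes) to GRCm38.p5 with Gencode M16 and deposited whole-number counts per gene, which are not normalized, in 1 table per subpopulation with 17811 (dim) and 17521 (bright) genes, 15768 of them in both. The strand used for counting is not given in the sources used here. The deposited RPKM, log2 fold changes, p-values and likelihood ratio score were computed by the authors and were not used: their gene lengths were 0.559 to 5.50 times the exon length of the 9 genes, and the others hold their own comparisons. ERCC spike-ins (0.0286% to 0.282% of counts) were left out.

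Counts were tested in R 4.3.3 with edgeR 4.0.16 (quasi-likelihood, version 4 fit, filterByExpr, TMM) in the 6 libraries of each comparison, and in all 12 for the interaction. Standard errors were derived from the F statistic. CPM were scaled over the 12 libraries on the genes in both tables, and levels were divided by the exon length of Gencode M21. The 9 genes, the gene lists and the markers were chosen with earlier results of these data known. Named were the 9 genes, each coat and neck gene, and in each comparison the highest and lowest gene of the other lists. For likeness, the 3 genes nearest to *Cav1*, *Plvap*, *Ehd3* and *Ehd4* with average logCPM above 1 were named. Alternatives were RLE size factors, library sizes alone, every gene with a count, average logCPM above 1, DESeq2 1.42.0, edgeR's likelihood ratio test and version 3 fit (added after seeing the data), all 12 libraries in one fit, marker covariates (in AS over WT alone), a replicate block and leaving out each library. The tests were tried on simulated data.

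By the labels, the dim and bright libraries with the same number in a genotype come from 1 mouse. Deviations from group means correlated over genes at 0.0869 to 0.288 within a mouse in WT and 0.106 to 0.471 in AS, and at -0.236 to 0.0226 and -0.357 to 0.247 between mice. WT and AS share a replicate number only. P-values rest on 3 mice per group.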

Additional observations from a re-analysis of the deposited data

Results flagged for a closer look

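The genotype effect differed between bright and dim cells, by the interaction test, for 6 of the genes named. They were 2 of the 9 genes, 3 of 5 coat and neck genes tested and 1 of 7 caveolar and raft proteins, all higher. None of the 10 EHD partners and none of the 8 clathrin coat genes passed. Over all 15084 genes tested, 2.96% were higher and 0.815% lower. On the log2 scale, AS over WT in the bright minus the dim cells was 3.98 for *Cav1* (adjusted p = 0.00432), 2.20 for *Ehd2* (adjusted p = 0.0109), 1.52 for *Cavin1* (adjusted p = 0.0189), 2.94 for *Cavin2* (adjusted p = 0.00432), 2.73 for *Cavin3* (adjusted p = 0.0320) and 4.32 for *Aqp1* (adjusted p = 0.0182). *Cav1*, *Ehd2* and *Cavin2* passed in all 20 alternatives, *Cavin1* and *Aqp1* in 16 and *Cavin3* in 12. The interaction was not run with a marker covariate. *Cavin1* missed the threshold without the first or second AS-dim library (1.51 and 1.35) and without AS-bright replicate 1 or 3 (1.52 and 1.37). *Cavin3* missed it without replicate 1 or 2 of WT-dim, WT-bright or AS-dim and without replicate 1 or 3 of AS-bright (2.36 to 2.71, adjusted p 0.0537 to 0.0985). *Aqp1* missed it without AS-dim replicate 1 or 3 or AS-bright replicate 1 (3.79, 3.89 and 4.17) and with the version 3 fit (4.28). Of 13 endothelial markers 11 passed the same test, as did 5 of 6 podocyte markers (2.13 to 3.48, adjusted p 0.00432 to 0.0193), and the part of both lists in these results was not tested.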

How the results depend on the processing

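Over all alternatives, 1470 values kept their direction and their side of the threshold, 94 lost the call, 24 gained one and 54 changed sign. Causes of changes were not tested. With 3 mice per group and covariates that differ between genotypes, the calls of AS over WT in the dim cells often changed. *Pacsin3* and, in the dim cells, *Plvap* rest on few counts, and the values of *Dnm3* that use the AS-dim cells depend on AS-dim replicate 2.

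In AS over WT of the dim cells the number of the 9 genes called lower was 3, against 1 with the version 3 fit, 1 with a replicate block, 0 with the proximal tubule covariate, 0 with the leukocyte covariate and 0 to 5 without 1 library (0 without any AS-dim library, 1 without WT-dim replicate 1 or 2, 5 without WT-dim replicate 3, with *Plvap* then passing the filter on low counts). In the bright cells 0 genes were called higher, against 1 with DESeq2, 1 with the likelihood ratio test and 0 to 1 without 1 library. In WT bright over dim 1 gene was called lower, against 0 to 1 without 1 library. The interaction called 2 genes higher, against 4 with DESeq2, 4 with the likelihood ratio test and 2 to 4 without 1 library (4 without WT-dim replicate 3). With library sizes alone the WT-bright mean was 312 CPM for *Cav2* and 267 for *Ehd2*, beside 297 and 255.

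Over all genes, AS over WT of the dim cells called 1263 genes, against 2213 with DESeq2, 1946 with the likelihood ratio test, 582 with the version 3 fit, 494 with a replicate block, 2106 with all 12 libraries in one fit, 1 with the proximal tubule covariate, 0 with the leukocyte covariate and 0 to 1825 without 1 library. The bright cells gave 65, against 39 with every gene kept, 1117 with DESeq2, 827 with the likelihood ratio test, 0 with the version 3 fit, 16 with a replicate block, 139 with all 12 libraries in one fit, 0 with the proximal tubule covariate, 909 with the leukocyte covariate and 0 to 281 without 1 library. The interaction called 569, against 1186 with DESeq2, 1114 with the likelihood ratio test, 877 with a block for each mouse and 252 to 857 without 1 library. That block changed the call of *Ehd3* and of no other of the 9 genes. Across WT and AS, same-numbered libraries correlated on average at -0.0655 (dim) and -0.0622 (bright), so that the block there pairs by number alone.

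Signs changed as follows on the log2 scale. In AS over WT of the dim cells, library sizes alone gave 0.035 for *Ehd1* and 0.019 for *Dnm2*, the replicate block 0.013 for *Ehd1* and -0.12 for *Dnm3*, the proximal tubule covariate -0.27 for *Ehd4* and 0.60 for *Rab11fip2*, and the leukocyte covariate 0.0097 for *Ehd2*, 0.050 for *Ehd3*, -0.11 for *Ehd4* and 5.10 for *Rab11fip2*. Without 1 library *Ehd1* ran from -0.28 to 0.31, *Dnm2* from -0.24 to 0.24, *Dnm3* from -2.63 to 1.42 and *Rab11fip2* from -1.28 to 1.37. In the bright cells the proximal tubule covariate gave 0.35 for *Cav2*, -0.31 for *Ehd1*, -0.12 for *Ehd3*, -0.074 for *Ehd4*, -0.071 for *Pacsin2*, -0.0067 for *Dnm2*, 0.23 for *Cavin2*, 0.26 for *Pacsin3* and 0.34 for *Rab11fip2*, and the leukocyte covariate 0.064 for *Cavin3*. Without 1 library *Ehd1* ran from -0.085 to 0.96, *Pacsin2* from -0.011 to 0.42, *Cavin2* from -0.34 to 0.061, *Cavin3* from -0.40 to 0.10, *Pacsin3* from -1.17 to 1.35 and *Clta* from -0.27 to 0.013. In bright over dim, *Dnm2* of WT ran from -0.00094 to 0.48 without 1 library, and *Pacsin3* of AS from -0.48 to 0.99, with 0.0054 by the likelihood ratio test, 0.0025 by the version 3 fit and 0.049 with the replicate block. The interaction of *Ehd4* was -0.018 with RLE factors, -0.13 with library sizes alone, -0.13 with average logCPM above 1 and -0.018 with DESeq2. Without 1 library it ran from -0.22 to 0.15, and that of *Pacsin2* from -0.33 to 0.15, *Dnm2* from -0.075 to 0.37, *Pacsin3* from -1.61 to 0.90, *Dnm3* from -2.24 to 1.65 and *Clta* from -0.35 to 0.034.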
